A study of Drosophila melanogaster with 7 samples.

Results

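The cytosolic ribosomal protein genes of Drosophila melanogaster were followed across eye imaginal discs of 2 sevenless (sev) genotypes. Members were taken by gene symbol, updated to current symbols: every symbol that begins with RpL or RpS and a number, the stalk genes of the RpLP series, and the genes sta and sop. Of 93 genes that match this rule in the gene table, 39 had a named probe on the array and 35 had a value on at least 1 array, among 5971 genes with a value in all. The values that follow concern these 35 genes, which include neither sta nor sop. Of these genes, 32 had a value on all 7 arrays. Most members were read by 1 probe, and 4 had more than 1 probe with a value.

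Each cytosolic ribosome joins a small 40S subunit, which decodes the messenger RNA, to a large 60S subunit, which forms the peptide bonds. Their proteins are needed in near-equal amounts, and in Drosophila the loss of 1 copy of many of these genes gives the Minute phenotype of slow growth and short bristles. Cells with such a loss are outcompeted by normal neighbours in imaginal discs, the larval epithelia that form the adult body parts. In the eye disc, the Sevenless receptor, a tyrosine kinase, steers precursor cells to become R7 photoreceptors.

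The tested discs carried sevS11, which is known to encode an activated receptor, or sevd2, a known loss-of-function allele, labelled sevd2;+;+. The labels do not give the make-up of the sevS11 allele or the promoter that drives it. All groups shared the w1118 background, came from larvae of the third instar staged with bromophenol blue, and were measured against 1 common pool of RNA from the isogenic wild-type strain w1118;+;+. RNA of each mutant came from 2 extractions. For sevS11, extraction 1 was hybridised on a dye-swapped pair of arrays and extraction 2 on a single array with the mutant RNA in Cy5. For sevd2, both extractions had a dye-swapped pair. Below, the arrays of sevS11 are named in the order extraction 1 in Cy5, extraction 1 in Cy3 and extraction 2 in Cy5, and those of sevd2 in the order extraction 1 in Cy5, extraction 1 in Cy3, extraction 2 in Cy5 and extraction 2 in Cy3.

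Values are log2 ratios, likely of mutant over the w1118 pool, so that 0 means an equal signal. This direction was taken from sev itself, which stood at 1.85 and 4.43 in the sevS11 extractions and at -0.32 and -0.41 in the sevd2 extractions, so sev does not check the labels. Between 5194 and 7009 probes per sevS11 array and between 4701 and 5691 per sevd2 array had a value, and precision is limited by how few arrays there were. One label field names wing discs for the wild-type pool, while the source, tissue and extraction fields name eye discs. All 11 eye disc markers had a value and the 9 tested ones lay between -0.46 and 0.51 in sevS11 and between -0.27 and 0.32 in sevd2. Of 8 wing disc markers, 4 had a value (ap, zfh2, bs and tsh), and none was found for vg, nub, pdm2 and rn. The 2 tested ones, bs and tsh, stood at -0.10 and 0.10 in sevS11 and at 0.23 and 0.04 in sevd2.

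A single gene stood apart from the family in both genotypes. RpS21 encodes a protein of the 40S subunit. In Drosophila its mutants, known as oho23B, overgrow the larval blood-forming organs. It read -2.10, -1.91 and -2.80 on the sevS11 arrays, and -2.63, -2.52, -2.08 and -1.65 on the sevd2 arrays. All 7 arrays were far below 0 and the 2 genotypes overlapped, with the sevS11 extractions at -2.01 and -2.68 and the sevd2 extractions at -2.57 and -1.86. In sevS11 RpS21 fell by 2.34 ± 0.22 on the log2 scale (SE, n = 2 extractions; limma, adjusted p = 0.0122, 95% interval -2.90 to -1.79). That is a signal 5.08-fold lower, or 19.7% of the pool. In sevd2 the ratio was -2.22 ± 0.22 (SE, n = 2 extractions; 95% interval -2.77 to -1.67), which corresponds to 21.5% of the pool and lay just outside the threshold (limma, adjusted p = 0.0530). The sevd2 value passed under 18 of 23 alternatives, the looser threshold among them, with the value between -2.88 and -1.86. In sevS11 it passed under all 23 alternatives run, between -2.67 and -1.87.

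RpS21 had the lowest ratio of all 3586 tested genes in each genotype. On 5 of the 7 arrays no gene with a value was lower, while 1 gene was lower on the Cy3 array of sevS11 extraction 1 and 2 genes on the Cy5 array of sevd2 extraction 2. Of the 2261 genes with a value on every array, 2 lay below -1 on all of them (0.0885%), RpS21 and CG18853. The next lowest member was RpL3 in sevS11 at -0.39 and RpL17 in sevd2 at -0.44. Between the genotypes RpS21 differed by -0.13 ± 0.32 (sevS11 minus sevd2; 95% interval -0.91 to 0.65; limma, adjusted p = 0.877). With arrays scaled to 1 median absolute value this difference was 1.01 (limma, adjusted p = 0.296), the other direction and outside that interval. Both genotypes were set against the same pool, so this low ratio is not 2 independent observations, and the spread of the pool itself was not measured. In whole discs, fewer cells of a type and less RNA per cell cannot be told apart. A single probe stands for RpS21 on these arrays.

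**Figure D1:**
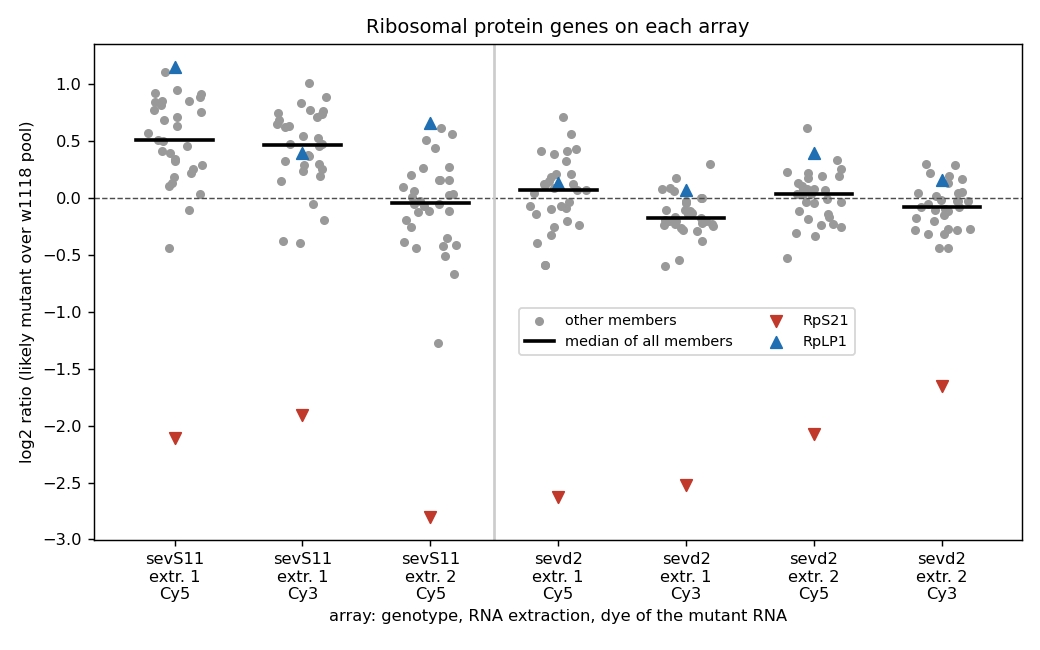
Log2 ratio (likely mutant over the w1118 pool) of each ribosomal protein gene on each of the 7 arrays, with sevS11 arrays left and sevd2 arrays right. Each point is 1 gene and the bars are medians over the genes with a value. RpS21 (triangles pointing down) lies below -1.6 on every array, and the medians of the pair of arrays from sevS11 extraction 1, at 0.51 and 0.47, lie above those of all other arrays.

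The proteins RpLP0, RpLP1 and RpLP2 form the stalk of the large subunit, a flexible arm that recruits the GTPases of elongation. RpLP1 read 1.16, 0.39 and 0.66 on the sevS11 arrays, and 0.13, 0.08, 0.39 and 0.16 on the sevd2 arrays. Every array of both genotypes lay above 0, and the lowest sevS11 value, 0.3943, was only just above the highest sevd2 value, 0.3935. It was the highest member in each genotype. RpLP1 rose in sevS11 by 0.63 ± 0.12 (SE, n = 2 extractions; limma, adjusted p = 0.0409, 95% interval 0.35 to 0.92), or 1.55-fold. In sevd2 the RpLP1 ratio of 0.19 ± 0.12 missed the threshold (limma, adjusted p = 0.695). The difference of 0.44 ± 0.16 did not pass either (sevS11 minus sevd2; 95% interval 0.04 to 0.84; limma, adjusted p = 0.350). The sevS11 call was lost under 6 of 23 alternatives: with the dye effect of the sevS11 pair only (0.53), with scaled arrays (0.47), with quantile normalisation (0.48), and without the Cy5 array of sevS11 extraction 1 (0.53), the Cy3 array of sevd2 extraction 1 (0.60) or sevd2 extraction 1 as a whole (0.60).

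The other stalk genes did not pass. RpLP2, its partner in the stalk dimers, read 0.82, 0.19 and -0.43 on the sevS11 arrays, and 0.05, -0.60, 0.62 and 0.29 on the sevd2 arrays. Its extractions disagreed in sign in both genotypes, with 0.51 and -0.70 in sevS11 and -0.27 and 0.45 in sevd2, and the genotype values were -0.10 ± 0.31 and 0.09 ± 0.31. RpLP0, which anchors the dimers, read 0.10, -0.38 and 0.56 on the sevS11 arrays, and 0.12, -0.10, 0.20 and -0.11 on the sevd2 arrays. Its values of 0.13 ± 0.14 in sevS11 and 0.03 ± 0.14 in sevd2 did not pass.

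These were the calls of the family. Of 33 members tested, 2 passed in sevS11 (6.06%), against 207 of all 3586 tested genes (5.77%), so the share of members was near the background. One member was higher (RpLP1; 2.18% of all genes were called higher) and 1 lower (RpS21; 3.6% of all genes were called lower). At an unadjusted p under 0.05 there were 8 members in sevS11 (24.2%, against 25.3% of all genes), 6 higher (11.2% of all genes) and 2 lower (14.2% of all genes). In sevd2 no member passed, while 3 of all genes did (0.0837%; 0.0279% lower). At an unadjusted p under 0.05 sevd2 had 9.76% of all genes in either direction; 2 members, RpL17 and RpS21, were lower there (limma; 6.06%, against 5.38% of all genes), with no member higher (4.38% of all genes). In sevS11 minus sevd2 no member passed, while 2 of all genes did (0.0558%). At an unadjusted p under 0.05, 1 member, RpLP1, was higher there (limma; 3.03%, against 5.61% of all genes) and none was lower (7.14% of all genes). The smallest absolute log2 ratio that passed among all genes was 0.461 in sevS11, 1.286 in sevd2 and 2.102 in the difference, and 5 of 33 members in sevS11, 1 in sevd2 and 0 in the difference had a ratio at least that large. Changes of the size of most members' ratios were therefore not called for any gene. The members left out of the tests were RpL10Aa, a paralog of RpL10Ab, with a value of 0.10 on the single array of sevS11 extraction 2, and RpS5b, a paralog of RpS5a, with a value of 0.56 on the Cy5 array of sevd2 extraction 1. RpL22-like, RpS10a, RpS19b and RpS28a had a named probe and no value.

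As a family, the ribosomal protein genes separated the 2 sevS11 extractions. Their median was 0.51 on the Cy5 array of sevS11 extraction 1 and 0.47 on its Cy3 array, against -0.04 on the array of sevS11 extraction 2. On the sevd2 arrays it was 0.07, -0.18, 0.04 and -0.08. Per extraction, over the 33 tested members, the medians were 0.51 and -0.10 in sevS11 and -0.01 and -0.03 in sevd2, while those of all tested genes were -0.03, 0.01, 0.01 and 0.01. In sevS11 extraction 1, 29 of 33 members were above 0 (87.9%, against 45.9% of all tested genes) and 25 were above 0.3 (75.8%, against 20.2%). In sevS11 extraction 2, 12 were above 0 (36.4%, against 50.8%). In sevd2 extractions 1 and 2, 16 (48.5%, against 52% of all tested genes) and 15 (45.5%, against 52.4%) were above 0. Of the members on every array, 12 lay above 0 on all sevS11 arrays (37.5%, against 23.3%) and 3 below 0, RpL3, RpS12 and RpS21 (9.38%, against 28.4%). On all sevd2 arrays, RpLP1 and RpS15 lay above 0 (6.25%, against 23.4%) and 7 members below 0 (21.9%, against 22.1%). The family thus had its high ratios in 1 of 4 RNA extractions.

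Member by member, sevS11 extraction 1 exceeded extraction 2 in 31 of 33 genes (93.9%, against 48.1% of all tested genes), by a median of 0.59 and over a range of -0.53 to 1.61. RpL3 and RpLP0 were the exceptions. In sevd2, extraction 1 exceeded extraction 2 in 14 of 33 (42.4%, against 49.2%), with a median difference of -0.03. On the arrays themselves, before any dye correction, both arrays of sevS11 extraction 1 lay above the array of extraction 2 for 26 of 32 members (81.2%, against 42.9% of the 2261 genes on every array). They lay above all 4 sevd2 arrays for 22 of 32 (68.8%, against 29.9%). The array of sevS11 extraction 2 lay above all sevd2 arrays for 6 members (18.8%, against 29.9%), below them for 7 (21.9%, against 32.7%) and among them for 19. Of the members, 4 had every sevS11 array above every sevd2 array (RpL34a, RpL37-2, RpL7-like and RpLP1; 12.5%, against 13.3%), and RpL3 had every sevS11 array below every sevd2 array (3.12%, against 16.9%). Per extraction, both sevS11 values lay above both sevd2 values for 10 of 33 members (30.3%, against 22.3% of all tested genes) and below them for 1 (3.03%, against 26.7%). With 1 array and no dye swap, extraction 2 of sevS11 is the least replicated of the 4.

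**Figure D2:**
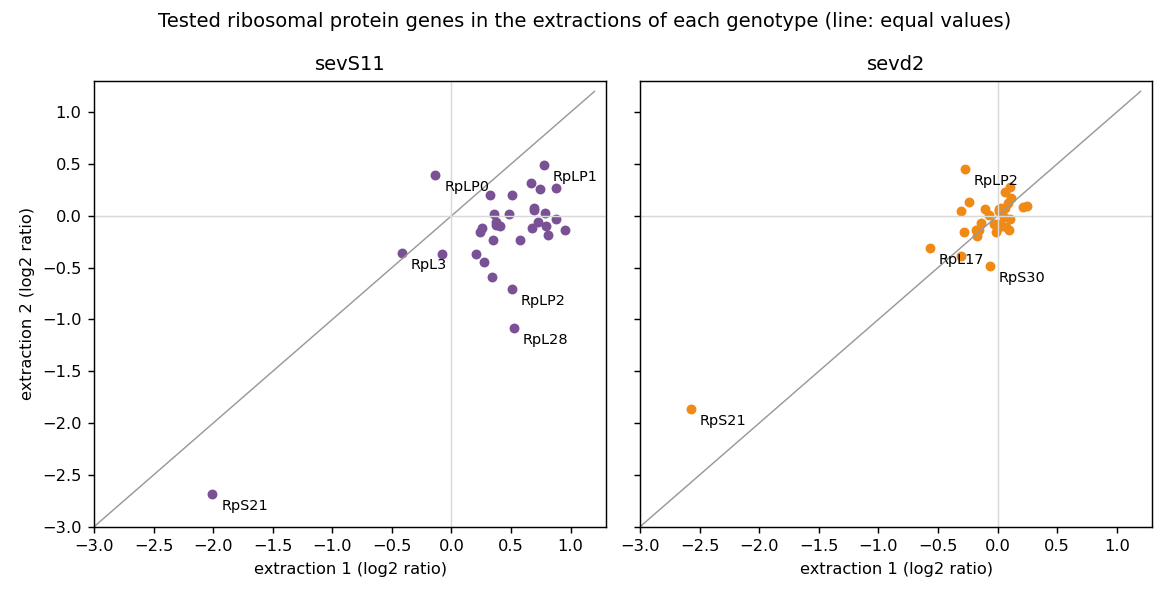
Log2 ratio of the 33 tested ribosomal protein genes in extraction 1 (horizontal) and extraction 2 (vertical), in sevS11 (left) and sevd2 (right). Each point is 1 gene and the diagonal marks equal values. In sevS11 31 of 33 points lie below the diagonal, while in sevd2 14 do, with RpS21 far below 0 on both axes in each genotype.

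Averaged over extractions, the family median was 0.19 in sevS11, with 25 of 33 members above 0 (75.8%, against 49.3% of all tested genes), and -0.03 in sevd2, with 13 above 0 (39.4%, against 52.6%). The median difference, sevS11 minus sevd2, was 0.26, and 25 members lay above 0 (75.8%, against 47.8%). Over all tested genes these medians were -0.0036 in sevS11 and -0.0154 in the difference. Without the single array of sevS11 extraction 2 the family median in sevS11 was 0.51, and without sevS11 extraction 1 it was -0.14, so the sign of the family's ratio depended on which extraction was kept. Without RpS21 the medians were 0.22 in sevS11 and -0.03 in sevd2.

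Markers of cell types were read in the same extractions. The hemocyte genes, which mark blood cells, had a value for 11 of 11 members. The 7 tested ones lay between -0.25 and 1.75 in sevS11 and between -1.01 and 0.05 in sevd2, and had medians of 0.45 and 0.30 in sevS11 extractions 1 and 2 and of -0.90 and -0.67 in sevd2 extractions 1 and 2. Of these, 3 rose in sevS11 (PPO1, PPO2 and He). The 9 tested eye disc markers had medians of 0.13 and 0.42 in sevS11 and of 0.17 and -0.02 in sevd2, and the homeobox gene ro rose in sevS11 by 0.51 (limma, adjusted p = 0.0484). Of 6 fat body markers 1 had a value, Lsp2, at 0.03 in sevS11 and -0.17 in sevd2. The part of these cells in the family's values was not tested.

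Among the genes of the 60S body, outside the stalk, no member passed in any comparison. The 15 tested ones had medians of 0.53 and -0.12 in sevS11 extractions 1 and 2 and of 0.00 and -0.08 in sevd2 extractions 1 and 2. RpL37-1 and RpL37-2, paralogs that encode near-identical zinc-binding proteins and whose signals may not be separable on an array, were both above 0 on all sevS11 arrays. RpL37-1 read 0.95, 0.38 and 0.52 in sevS11, against 0.44, -0.00, 0.18 and -0.01 in sevd2. RpL37-2 read 1.11, 0.64 and 0.44 in sevS11, against 0.16, -0.13, 0.20 and -0.08 in sevd2. The genotypes overlapped for RpL37-1 and not for RpL37-2. Their sevS11 ratios were 0.49 ± 0.12 (limma, adjusted p = 0.0796) and 0.57 ± 0.16 (limma, adjusted p = 0.0995), and in sevd2 they were 0.15 ± 0.12 and 0.04 ± 0.16.

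RpL3, whose product lies near the peptidyl transferase centre, was the 60S gene with the lowest sevS11 ratio. It read -0.44, -0.39 and -0.41 in sevS11, against -0.20, -0.11, -0.24 and -0.03 in sevd2. In these means over probes the groups did not overlap, and the extractions of sevS11 differed by only 0.06. Its ratio of -0.39 ± 0.09 did not pass in sevS11 (limma, adjusted p = 0.0764), and in sevd2 it was -0.14 ± 0.09. A sevS11 call was gained under 5 of 23 alternatives. Among them was the per-probe fit, for its probe with the lowest p (-0.61, limma, adjusted p = 0.0414). Not all of its probes had a value on the Cy3 array of sevd2 extraction 1, so the means compare unlike sets of probes. Its 4 probes did not read alike: on the Cy5 array of sevS11 extraction 1 they gave -0.21, -0.70, -0.18 and -0.68. Over all arrays, the probes at -0.21 and -0.18 overlapped between the genotypes, while those at -0.70 and -0.68 did not.

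In sevS11, 18 of 33 members were above 0 in extraction 1 and below 0 in extraction 2 (54.5%, against 17.3% of all tested genes), and RpL28 and RpL40 had the lowest values in extraction 2 among the 60S genes outside the stalk. RpL28 read 0.40, 0.66 and -1.27 in sevS11, against -0.32, 0.18, -0.18 and 0.20 in sevd2. Its sevS11 extractions stood at 0.53 and -1.08, the largest excess of extraction 1 over extraction 2 among all 3586 tested genes (1.61), and its mean of -0.28 ± 0.35 became 0.53 without the array of extraction 2. RpL40, a ribosomal protein made as a fusion with ubiquitin, read 0.13, 0.55 and -0.67 in sevS11, against 0.07, -0.04, -0.17 and 0.02 in sevd2. Its sevS11 mean of -0.12 ± 0.21 likewise became 0.34 without the array of extraction 2.

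Among the other 60S genes, RpL17 and RpL34a had the lowest sevd2 ratios. RpL17, whose product sits at the tunnel through which the new chain leaves, read 0.04, 0.37 and -0.42 in sevS11, against -0.59, -0.55, -0.30 and -0.32 in sevd2. Its sevd2 ratio was -0.44 ± 0.16 (limma, adjusted p = 0.442) and its sevS11 ratio -0.08 ± 0.16. RpL34a read 0.58, 0.78 and -0.11 in sevS11, against -0.24, -0.38, -0.33 and -0.44 in sevd2, and the difference of 0.62 ± 0.27 did not pass (sevS11 minus sevd2; limma, adjusted p = 0.405). All sevd2 arrays were below 0 for both genes, and the groups did not overlap for RpL34a. RpL27 read 0.69, 0.89 and -0.05 in sevS11, against -0.09, 0.06, -0.23 and -0.08 in sevd2. RpL37A read 0.22, 0.48 and -0.38 in sevS11, against -0.07, 0.30, 0.04 and 0.30 in sevd2. Both followed the family, high in extraction 1 of sevS11 and near or below 0 in extraction 2. RpL32, known as rp49 and widely used as a reference gene in Drosophila, read 0.64, 0.75 and 0.20 in sevS11, against 0.39, -0.24, 0.07 and -0.28 in sevd2. Its ratio was 0.38 ± 0.16 in sevS11 and -0.02 ± 0.16 in sevd2, with a difference of 0.39 (sevS11 minus sevd2; 95% interval -0.18 to 0.97) that did not pass.

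The 40S genes were read by 12 tested members, RpS21 among them. They had medians of 0.39 and -0.09 in sevS11 extractions 1 and 2 and of -0.05 and -0.07 in sevd2 extractions 1 and 2, and without RpS21 the sevS11 medians were 0.41 and -0.09. In sevS11 extraction 1, 10 of 12 were above 0, against 4 of 12 in sevS11 extraction 2, and in sevd2 extractions 1 and 2 there were 4 and 5 of 12. The exceptions in sevS11 extraction 1 were RpS12 and RpS21. RpS30, made as a fusion with a ubiquitin-like protein, had the largest difference of the family. It read 0.92, 0.84 and 0.01 in sevS11, against 0.07, -0.20, -0.53 and -0.44 in sevd2. The lowest sevS11 array and the highest sevd2 array overlapped, and the difference of 0.70 ± 0.32 did not pass (sevS11 minus sevd2; limma, adjusted p = 0.423).

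RpS12, known in Drosophila for its part in the competition between Minute and normal cells, was below 0 on all sevS11 arrays. It read -0.10, -0.05 and -0.50 in sevS11, against -0.59, -0.03, -0.04 and 0.14 in sevd2, with ratios of -0.22 ± 0.13 and -0.13 ± 0.13. Its 2 probes differed on the Cy3 array of sevS11 extraction 1, with 0.37 and -0.48. RpS15 read 0.42, 0.30 and 0.06 in sevS11, against 0.13, 0.00, 0.23 and 0.22 in sevd2, and was above 0 on all 7 arrays. RpS18 read 0.29, 0.46 and -0.19 in sevS11, against -0.39, -0.18, -0.26 and -0.05 in sevd2, and was below 0 on all sevd2 arrays. RpS15 and RpS18 stood at 0.19 ± 0.12 and 0.14 ± 0.14 in sevS11 and at 0.15 ± 0.12 and -0.22 ± 0.14 in sevd2, and neither passed.

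The 3 genes named -like for their resemblance to a ribosomal protein stood above the family median in sevS11. Homologs of their products in yeast help to assemble the large subunit. RpL24-like read 0.89, 1.01 and -0.12 in sevS11, against -0.14, -0.20, -0.11 and -0.27 in sevd2. RpL7-like read 0.78, 0.71 and 0.27 in sevS11, against 0.12, 0.08, -0.03 and -0.02 in sevd2. RpLP0-like had values on 5 arrays, 0.51 and 0.16 in sevS11, on the Cy5 arrays of extractions 1 and 2, and 0.09, 0.08 and 0.17 in sevd2, so extraction 1 of each genotype rested on 1 array for this gene. Their sevS11 ratios of 0.41 ± 0.24, 0.50 ± 0.14 and 0.35 ± 0.11 did not pass (limma, adjusted p between 0.104 and 0.341).

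**Figure D3:**
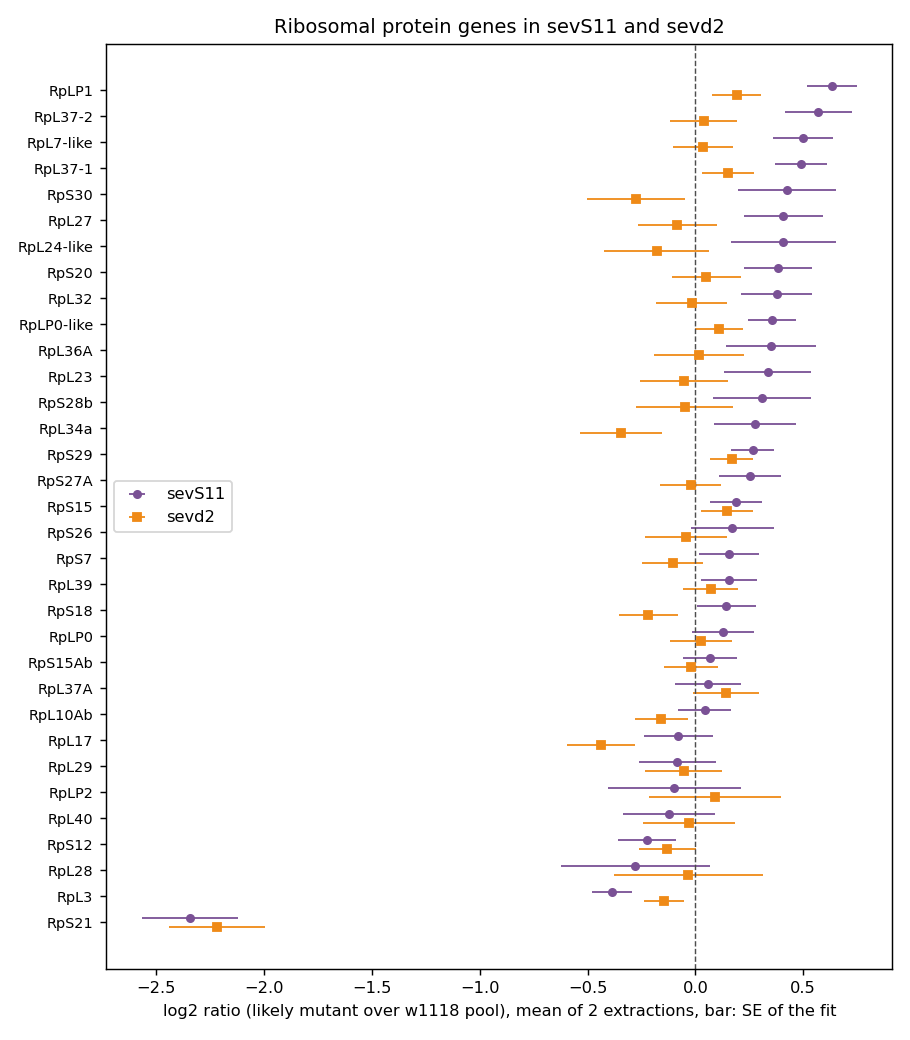
Mean log2 ratio of each tested ribosomal protein gene over 2 extractions in sevS11 (circles, upper of each pair) and sevd2 (squares), with the standard error of the limma fit as bars, ordered by the sevS11 value. RpS21 lies at -2.34 and -2.22, and the other 32 genes lie between -0.44 and 0.63.

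The arrays of a swapped pair showed how far single genes depended on the dye. The dye effect of a gene, by which Cy5 arrays exceeded the mean of both dyes, averaged over the 3 pairs, was above 0 in 22 of 33 tested members (66.7%, against 47.9% of 3439 genes with this value). RpS29, a zinc-binding protein of the 40S subunit, had the largest dye effect towards Cy5 of all genes, 0.41 (the lowest, towards Cy3, was -0.45), with pair differences of 1.04 in sevS11 extraction 1 and of 0.94 and 0.48 in sevd2 extractions 1 and 2. It read 0.85, -0.19 and 0.61 in sevS11, against 0.71, -0.23, 0.34 and -0.15 in sevd2, so it was above 0 on every array with the mutant RNA in Cy5 and below 0 on every array with it in Cy3. After the dyes were averaged or corrected it stood at 0.26 ± 0.10 in sevS11 and 0.17 ± 0.10 in sevd2. RpLP2 (0.27), RpS27A (0.24), RpL39 (0.22) and RpL37-1 (0.20) followed, and RpL28 (-0.19) and RpL37A (-0.15) were at the other end. RpLP1 had a dye effect of 0.18, and for RpS21 it was -0.12, small beside its ratio.

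**Figure D4:**
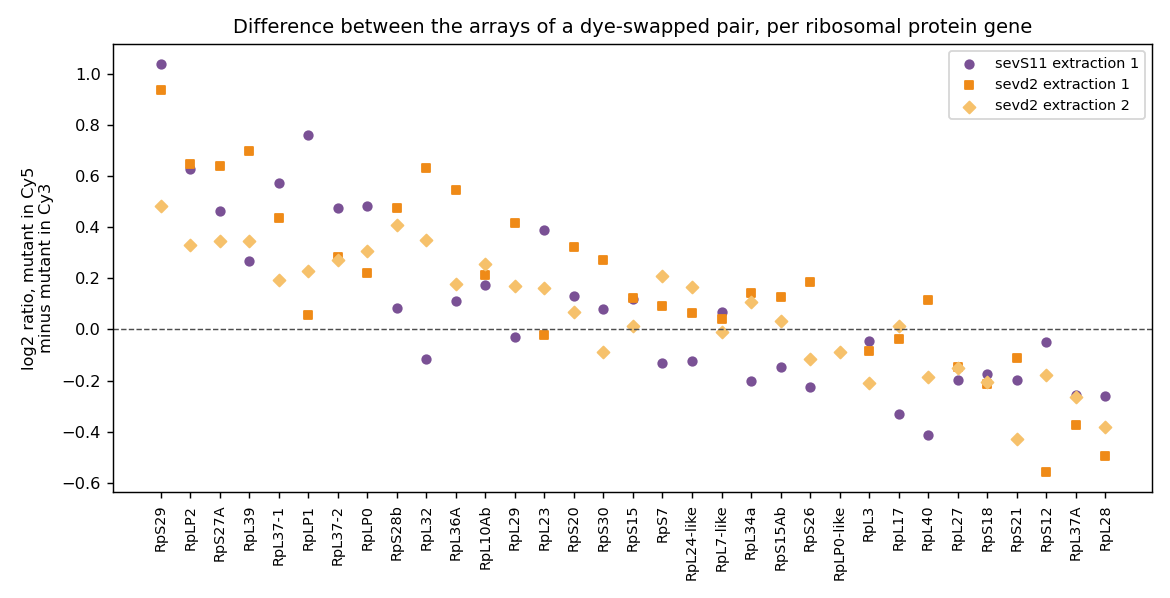
Difference in log2 ratio between the arrays of each dye-swapped pair (mutant RNA in Cy5 minus mutant RNA in Cy3) per ribosomal protein gene, with sevS11 extraction 1 as circles and sevd2 extractions 1 and 2 as squares and diamonds. Genes are ordered by the mean over pairs, from RpS29, with differences of 1.04, 0.94 and 0.48, down to RpL28.

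Other genes of protein synthesis were set beside the family. Mitochondrial ribosomal protein genes, which serve the separate ribosomes of that organelle, had medians of 0.41 and 0.00 in sevS11 extractions 1 and 2 and of -0.06 and 0.00 in sevd2 extractions 1 and 2, over 48 tested of 65 with a value. In sevS11, extraction 1 exceeded extraction 2 in 44 of these 48 (91.7%), so the split between extractions was not particular to the cytosolic family. One of the 48 rose in sevS11, mRpL13 (0.77 ± 0.12; limma, adjusted p = 0.0323), none fell there, and none passed in sevd2 or in the difference.

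Of 15 listed elongation factors and ribosome-associated proteins, 9 had a value and were tested, and none passed in either direction. Their medians were 0.30 and 0.14 in sevS11 extractions 1 and 2 and -0.03 and -0.12 in sevd2 extractions 1 and 2. By gene the order in sevS11 was not that of the medians. There extraction 1 exceeded extraction 2 in 4 of 9 (44.4%, against 48.1% of all tested genes), with a median difference of -0.12. In sevd2 it did so in 8 of 9 (88.9%, against 49.2%), with a median difference of 0.05. Within this list bic, the beta subunit of the nascent polypeptide complex, stood at 0.38 ± 0.11 in sevS11 and -0.12 ± 0.11 in sevd2, and Tctp at 0.39 ± 0.10 and -0.14 ± 0.10. Rack1, a component of the 40S subunit, stood at -0.10 ± 0.10 in sevS11 and -0.15 ± 0.10 in sevd2. Of 40 listed ribosome biogenesis genes, 31 had a value, 21 were tested and none passed. Their medians of 0.13 and 0.12 in sevS11 extractions 1 and 2 and of 0.06 and 0.07 in sevd2 extractions 1 and 2 were close to each other within a genotype. Gene by gene, sevS11 extraction 1 exceeded extraction 2 in 16 of 21 (76.2%, against 48.1% of all tested genes), by a median of 0.11, and sevd2 extraction 1 exceeded extraction 2 in 10 of 21 (47.6%, against 49.2%). The highest in sevS11 were Gar1, of the complex that modifies ribosomal RNA by pseudouridylation (0.60 ± 0.14, limma, adjusted p = 0.0720), and Dim1 (0.52 ± 0.11, limma, adjusted p = 0.0617). Dim1 was matched by its symbol alone, and whether the gene belongs in this list was not checked. The lowest was eIF6, which keeps the subunits apart, at -0.40 ± 0.17. Of 8 genes known to respond to the loss of ribosomal proteins, 4 had a value and 2 were tested, and neither passed: GstD1 stood at -0.24 in sevS11 and 0.08 in sevd2, and puc at 0.24 and 0.21.

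**Figure D5:**
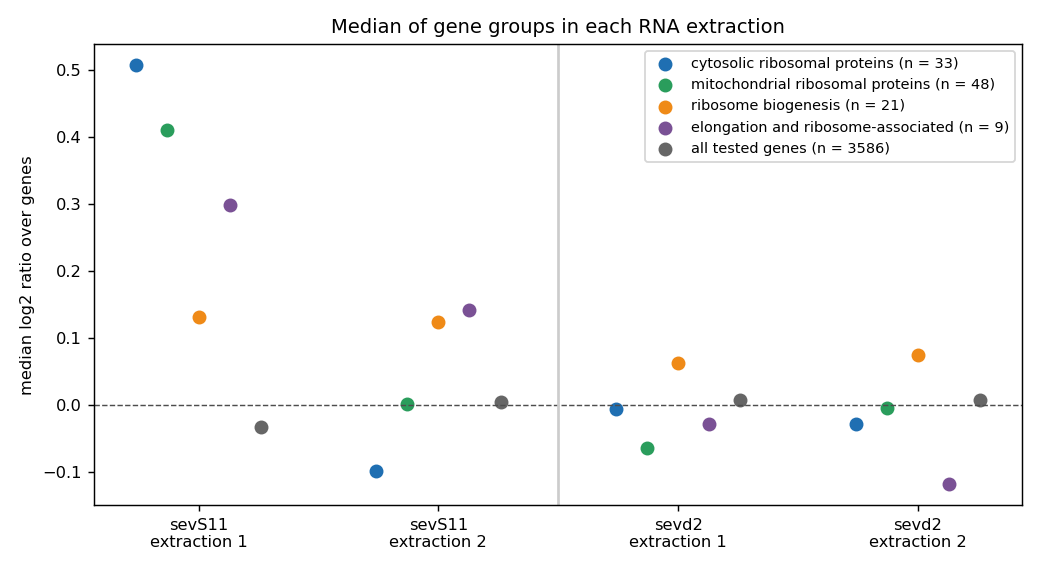
Median log2 ratio of 4 gene groups and of all tested genes in each RNA extraction, with sevS11 left and sevd2 right. In sevS11 extraction 1 the cytosolic and mitochondrial ribosomal protein genes lie at 0.51 and 0.41, while in the other 3 extractions both lie between -0.10 and 0.00.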

How the data were processed

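The authors deposited log2 ratios per probe for 7 2-colour arrays. Per the submitters' processing notes limma was used. Base 2 is that tool's convention, while for the background correction, normalisation and filter the sources used here name no method. Ratios of swapped arrays ran the same way as those of their partners (correlation across probes between 0.777 and 0.939 in 3 pairs), and array medians lay between 0.0012 and 0.0191. Over the members without RpS21, the pairs correlated less, at 0.54 in sevS11 extraction 1 and at 0.0038 and 0.48 in sevd2 extractions 1 and 2.

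Of 16416 probes 8650 had no value on any array. Gene names are those of the platform annotation, possibly outdated, brought to current symbols with the Release 6 plus ISO1 MT gene table. By gene identifier 12533 probes matched and by accession 120. Older symbols stayed for 511, and 101 probes with several genes and 3151 absent from the annotation stayed unnamed. Probes of 1 gene were averaged. Arrays of 1 extraction were averaged, and the dye effect per gene (the Cy5 excess over the mean of both dyes, averaged over the swapped pairs) was subtracted from the unswapped array; 147 tested genes had no complete pair and were not corrected. Its correlation across genes was 0.326 with the sevd2 mean and 0.114 with sevS11 extraction 1, so it may carry some sevd2 signal.

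The 3586 genes with a value in every extraction went into a limma 3.58.1 fit in R 4.3.3 (1 mean per genotype, 1 shared spread, prior degrees of freedom 3.8, residual 2), at a Benjamini-Hochberg adjusted p under 0.05 over all genes. Tests against the pool leave out its own spread. Since no label says whether separate animals gave the extractions, the p-values reflect only how the extractions varied, which may be technical. The steps were run on simulated data in which each gene varied independently between extractions. That simulation therefore does not cover a shift shared by a family of genes in 1 extraction. Members and lists were chosen with earlier results of these data known. Every member could be named, and array values are given for those that passed and for those farthest above and below the family median in each genotype; RpL32 was added as a common reference gene and RpLP0 as the remaining stalk gene. The alternatives covered the dye correction, the level of the fit, centring, scaling, quantile normalisation, probe choice, a robust fit, a block and leaving out arrays and extractions.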

Additional observations from a re-analysis of the deposited data

How the results depend on the processing

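The count of members that passed in sevS11, 2, was 5 at an adjusted p under 0.1 (408 of all genes, against 207). It was 1 with the dye effect of the sevS11 pair only (222 of all genes), with scaled arrays (107) or with quantile normalisation (163). Without dye correction it was 3, RpL37-1 added (162 of all genes), and per probe it was 3, RpL3 added (189 calls over all probes). The array-level fit, which counts the arrays of a pair as separate, gave 13 (1075 of all genes). Leaving out arrays or extractions gave 1 to 27: 27 without sevS11 replicate 3 (which drops extraction 2; 1745 of all genes), 10 without sevS11 extraction 1 (922 of all genes), and 1 when either sevS11 replicate 1, sevd2 replicate 2 or sevd2 extraction 1 was dropped. The count in sevd2, 0 (limma, 3 of all genes), was 1, RpS21, in several settings. These were an adjusted p under 0.1 (33 of all genes), the array-level fit (268), and centred (9), scaled (179) or quantile-normalised (145) arrays. The fits for genes on all arrays (13) and with 1 probe per gene (5) gave 1 as well. With only the sevd2 extractions 3 members passed (496 of all genes). Leaving out 1 array while both extractions of each genotype were kept gave 0 or 1. The count in sevS11 minus sevd2, 0, was 3 in the array-level fit (RpL34a, RpL37-2 and RpL7-like; 429 of all genes, against 2) and 0 to 23 with arrays or extractions left out (23 without sevS11 replicate 3, beside 1516 of all genes). Without dye correction the sevS11 member count rose while calls of all genes fell, and the per-probe fit counted calls over probes. In the other settings with more member calls, calls of all genes rose too. A rise in the member count is therefore not by itself a result about the members, and the shares were not compared there. Fits with a single extraction in a genotype assume that it varies like the other genotype. Deviations of extraction 1 from the genotype means correlated at -0.065 between the genotypes over 3586 genes. With 2 extractions per genotype, this cannot tell whether extractions of the same number were handled together. The replicate block on the extraction number gave 5 members in sevS11 (383 of all genes) and 1 in sevd2 (92 of all genes). The family median in sevS11 lay between -0.14 and 0.51 with arrays or extractions left out, that in sevd2 between -0.0811 and 0.0204 (-0.0581 with scaled arrays), and that of the difference between -0.008 and 0.52. Without sevS11 replicate 3 the values of RpL28 and RpL40 changed sign and passed, to 0.53 and 0.34 in sevS11 and to 0.56 and 0.37 in sevS11 minus sevd2. The lowest values, without sevS11 extraction 1, were -1.05 and -0.65, and -1.02 and -0.62, and these passed as well. The direction of both genes thus depended on which sevS11 extraction was kept. The RpS21 difference, -0.13, was 1.01 with scaled arrays (limma, adjusted p = 0.296; range over alternatives 0.296 to 1.00). Of the values of single genes under alternatives, 1229 stayed on their side of the threshold (those without a call moved by less than the spread between extractions), 75 gained a call, 6 lost one, 37 moved further, and 4 passed with the other sign, those of RpL28 and RpL40 above. In all, 47 of 1351 such values had the other sign, 31 of them with an array or extraction left out.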

Other observations

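Of the genes near RpS21 in the gene table, 5 with a value were tested: CG3119, Duox, HINT1 and colt, which lie 9, 11, 18 and 19 genes away on one side, and Sbat, 6 genes away on the other. Their ratios lay between -0.08 and 0.08 in sevS11 and between -0.25 and 0.15 in sevd2, none of which passed (limma, adjusted p between 0.609 and 0.964). The nearer genes had values on 1 or 2 sevS11 arrays each and were not tested. The adjacent gene CG2991 read -0.08 on the array of extraction 2, CG8814 read -0.48 on the Cy5 array of extraction 1 and -0.05 on that of extraction 2, and Ifrd1 and Prx6a read -0.34 and 0.57 on the Cy3 array of extraction 1. CG15399, 17 genes away, read 0.05 on the array of extraction 2.

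RpL17, RpS7 and RpS12 each had 2 probes. On the Cy5 array of sevd2 extraction 1 the RpL17 probes read -0.74 and -0.43, and the RpS7 probes read -0.17 and -0.03. On the array of sevS11 extraction 2 the RpS12 probes read -0.91 and -0.10.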
